A study of Mus musculus with 10 samples.

Results

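Dlx1, Dlx2, Dlx5, Dlx6, Gad1, Gad2, Slc32a1, Nkx2-1 and Gsx2 were examined in RNA-seq of the dorsal telencephalon, which gives rise to the cerebral cortex, in mouse embryos with and without Dot1l. The 9 genes were taken by name from the 43629 gene identifiers counted. They stand for the patterning of the ventral telencephalon and for the making and packaging of GABA. Total RNA was sequenced from 5 control and 5 Dot1l-cKO samples at E14.5, and the comparison asks how the transcripts of these genes differ when the histone methyltransferase DOT1L is removed. By label, each sample is a biological replicate of C57BL/6 strain. Values of single samples are given in the order of replicates 1 to 5.

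Control embryos carried no Cre and had 1 floxed and 1 wild-type Dot1l allele, labelled Dot1l-cKO f/+. Dot1l-cKO embryos carried 1 Cre allele and 2 floxed Dot1l alleles, labelled Dot1l-cKO f/f, and were littermates of controls per the study's methods. Both groups thus carried at least 1 floxed allele. The Cre driver acts across the telencephalon, dorsal and ventral, so the deletion is not limited to the dorsal part. Since no control carried Cre, the effect of the Cre allele and of the Dot1l deletion cannot be told apart in this design.

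GABA is the main inhibitory transmitter of the forebrain. Neurons that release it are born in the ventral telencephalon, in the ganglionic eminences, and part of them migrate into the cortex as interneurons, while the progenitors of the dorsal telencephalon make mainly glutamatergic neurons. GSX2 and NKX2-1 are homeodomain transcription factors of ventral progenitors, and NKX2-1 marks the medial ganglionic eminence. The DLX homeodomain factors act downstream of them in neurons on the way to a GABAergic fate, and their genes lie as neighbouring pairs, Dlx1 with Dlx2 and Dlx5 with Dlx6. GAD1 and GAD2 are the enzymes that make GABA from glutamate, and SLC32A1 is the transporter that loads it into synaptic vesicles.

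Total counts ranged from 54202349 to 66556034 per sample, and levels are given as CPM, the counts of a gene scaled to a TMM-normalised library of 1e+06 counts. Replicates 2 and 3 of both groups shared the header number 57 in the deposited tables and carried 0.0471% to 0.492% of counts in mitochondrial rRNA, against 5.79% to 10.9% in the other 6 samples. Differences within each of these sets are therefore given beside the pooled ones. Dot1l itself had 31.4 to 41.5 CPM in the controls and 20.1 to 51.7 CPM in the Dot1l-cKO samples, with a log2 fold change of 0.08 and an edgeR adjusted p of 0.864. These counts cover the whole gene and exon-level reads were not analysed here, so they are no check of the deletion.

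Of the 9 genes, 8 passed the filter on low counts and Nkx2-1 did not. All 8 had a lower mean in Dot1l-cKO, with log2 fold changes from -2.07 for Dlx1 to -1.56 for Dlx5 and a median of -1.76, while the median of the 17039 genes tested was -0.0056 and 51.2% of them had a negative value. Dot1l-cKO means were 23.9% to 34.0% of control means. None of the 8 passed an adjusted p of 0.05 in the edgeR quasi-likelihood test, in which 1.44% of genes tested were called lower and 5.67% higher in Dot1l-cKO, or 7.11% in all. Their edgeR adjusted p ranged from 0.0515 for Slc32a1 to 0.244 for Dlx2. An unadjusted edgeR p under 0.05 was reached by 7 of the 8, which 7.3% of all genes tested reached in that direction. DESeq2, the other count test, called 1 of them, Slc32a1, and called 3.43% of its genes lower. The edgeR test called 1 of them with DESeq2 size factors, which called 1.85% of genes lower, and 1 with no filter on low counts, which called 0.707% of genes lower, in both cases Slc32a1. With the replicate number or the header number as a block edgeR called none of the 8, although all 8 had an unadjusted p under 0.05, and it called 2.91% and 3.5% of all genes lower. Slc32a1 then had adjusted p of 0.0581 and 0.0506. Mean differences in log2 CPM of the 8 genes ran from -1.75 for Slc32a1 to -0.69 for Gsx2 among samples of header number 57 and from -3.41 for Gsx2 to -1.80 for Dlx5 among the other 6, so each mean difference was negative in both sets. The set of header number 57 holds 2 samples per genotype, and in its pair of replicates 3 the Dot1l-cKO sample was the higher one for 6 of the 8 genes, all but Dlx5 and Slc32a1. The other same-numbered pairs were lower in Dot1l-cKO for all 8, so these 6 genes were lower in 4 of 5 pairs and Dlx5 and Slc32a1 in 5 of 5. A log2 fold change of -1.5 or lower was found in 0.381% of all genes tested. The 8 genes varied together over the samples, with a median Pearson's r of 0.93 between pairs after the genotype means were subtracted. Their counts beside the shares of all genes are therefore not 8 independent results. In bulk tissue, fewer cells of a type and less RNA per cell cannot be told apart.

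**Figure D1:**
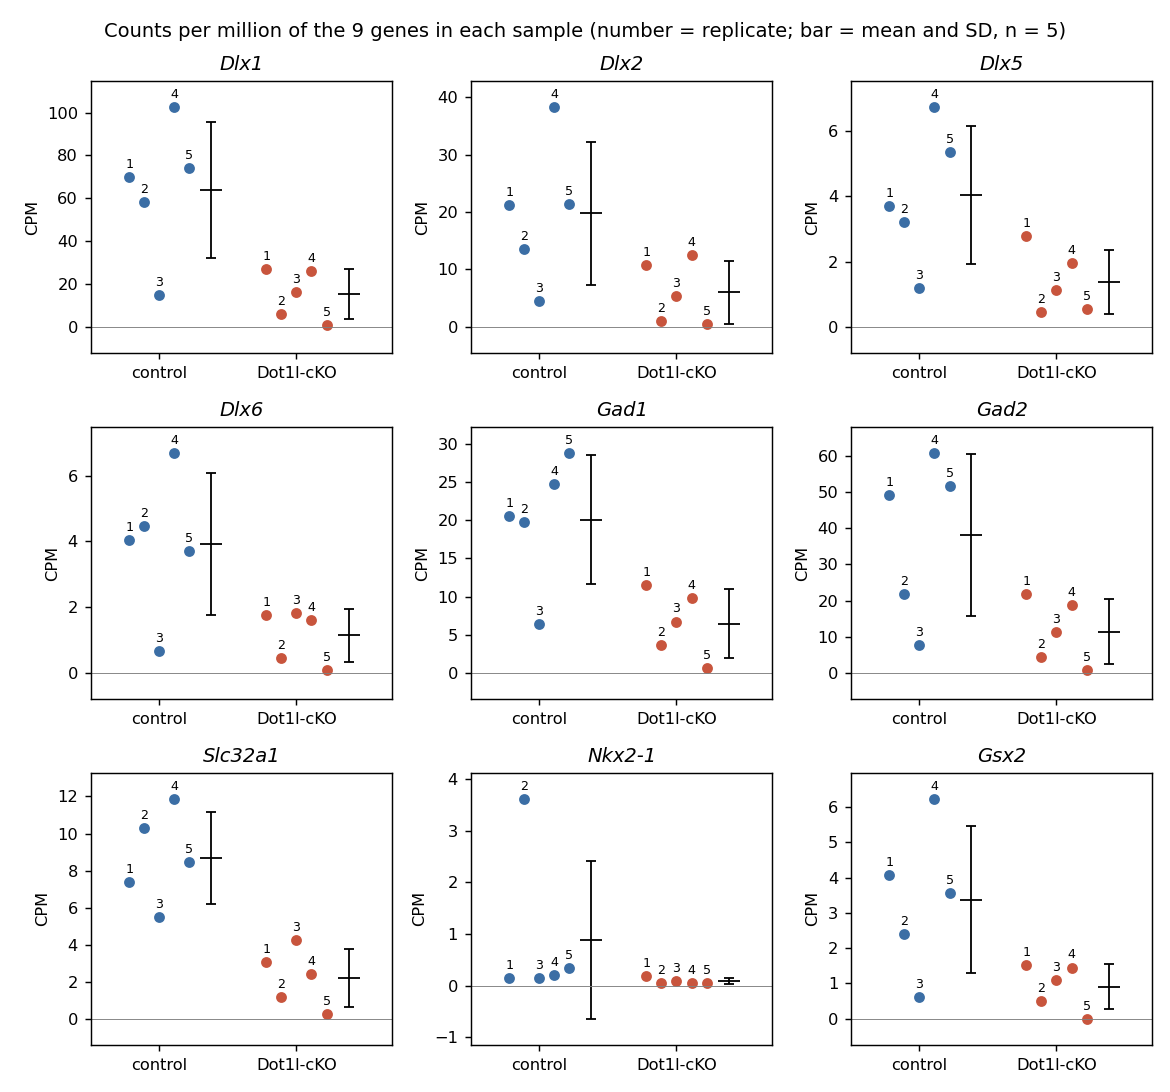
Each panel gives the CPM of 1 gene in every sample, with control in blue and Dot1l-cKO in red, on a linear axis of its own. Numbers are replicates and the black bars are the mean and SD of 5 samples. Control replicate 3 lies among the Dot1l-cKO samples for 8 of the 9 genes, Slc32a1 shows no overlap, and Nkx2-1 is high in control replicate 2 alone.

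Gsx2 (ENSMUSG00000035946, chr5:75075601-75077893, plus strand, GRCm38) specifies progenitors of the lateral ganglionic eminence. Its control values were 4.06, 2.39, 0.599, 6.23 and 3.57 CPM. Its Dot1l-cKO values were 1.51, 0.486, 1.1, 1.45 and 0 CPM. All controls but replicate 3 lay above every Dot1l-cKO sample. Dot1l-cKO replicate 5 held no count, and a count of 0 allows up to 3 counts, or 0.0483 CPM in that library, with counting error only. The log2 fold change of Gsx2 was -1.89 with an SE of 0.78 and an edgeR adjusted p of 0.195. Its mean difference in log2 CPM was -0.69 within the samples of header number 57 and -3.41 within the remaining 6, and the larger value includes the sample with no count.

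Nkx2-1 (ENSMUSG00000001496, chr12:56531958-56536908, minus strand) was close to the limit of detection in all samples but 1. The controls had 0.141, 3.61, 0.150, 0.202 and 0.339 CPM, which are 7, 206, 10, 13 and 21 counts. The Dot1l-cKO samples had 0.189, 0.0520, 0.0875, 0.0603 and 0.0483 CPM, which are 10, 3, 5, 4 and 3 counts. Control replicate 2 stood alone. Of the other 4 controls, replicates 1 and 3 lay below Dot1l-cKO replicate 1, and replicates 4 and 5 lay above it. The remaining 4 Dot1l-cKO samples lay below every control. With no filter on low counts the log2 fold change was -3.36 with an SE of 0.96 and an edgeR adjusted p of 0.0809. Without control replicate 2 it was -1.28 with an edgeR adjusted p of 0.234, so the size of this difference rests on 1 library. Without control replicate 3 it was -3.64 and passed the threshold, with an edgeR adjusted p of 0.0399. DESeq2 gave this gene no adjusted p. The same library was the highest for Lhx8, a LIM homeodomain gene of the medial ganglionic eminence, with 2.51 CPM, where the other 9 samples had 0.0161 to 0.717 CPM. It was also the highest for Shh, the morphogen of the ventral midline, with 1.49 CPM against 0.0402 to 0.371 CPM in the other 9. Both genes were chosen for mention after their values were seen.

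Dlx1 (ENSMUSG00000041911, chr2:71528113-71533981, plus strand) had the highest level of the 9 genes in control tissue, also per exon length. Controls had 70.0, 58.5, 15, 102 and 74.0 CPM. Dot1l-cKO samples had 27.2, 6.12, 16.2, 25.9 and 0.967 CPM. Replicate 3 was the lone control inside the Dot1l-cKO range, and Dot1l-cKO replicate 5 was the lowest of all samples, in a group with a median of 16.2 CPM. The means were 64.0 ± 31.8 (SD, n = 5) and 15.3 ± 11.7 CPM (SD, n = 5). Dlx1 had a log2 fold change of -2.07 with an SE of 0.71, an unadjusted p of 0.0137 and an edgeR adjusted p of 0.115.

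Dlx2 (ENSMUSG00000023391, chr2:71543408-71546754, minus strand) is transcribed towards Dlx1 from the other end of the same gene pair. Controls had 21.1, 13.5, 4.45, 38.2 and 21.4 CPM of Dlx2, and Dot1l-cKO samples had 10.7, 1.11, 5.36, 12.5 and 0.435 CPM. As for Dlx1, control replicates 1, 2, 4 and 5 lay above all Dot1l-cKO samples and control replicate 3 did not. The log2 fold change was -1.71 with an SE of 0.78 and an edgeR adjusted p of 0.244. Dlx1as, an antisense transcript of the Dlx1 locus that was counted by strand, had 23.9 ± 11.1 CPM for controls against 8.16 ± 5.90 CPM for Dot1l-cKO (n = 5 each, SD), with an edgeR adjusted p of 0.198.

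Upstream sequences of 2 genes of the set are shown because both hold the palindrome CACGTG, an E-box. They are the 250 bases before the RefSeq start on GRCm38.p6, read in the direction of transcription, for Dlx2 at chr2:71546755-71547004 on the minus strand and for Gsx2 at chr5:75075351-75075600 on the plus strand. Capitals mark CACGTG, found in 2 copies for Dlx2 and 1 for Gsx2, and in Gsx2 also the TATA box letters TATAAA.
Dlx2: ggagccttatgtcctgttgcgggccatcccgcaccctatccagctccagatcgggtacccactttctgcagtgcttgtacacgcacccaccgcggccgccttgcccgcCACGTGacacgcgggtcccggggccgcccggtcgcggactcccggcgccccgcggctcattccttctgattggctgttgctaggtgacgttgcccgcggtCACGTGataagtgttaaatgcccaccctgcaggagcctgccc
Gsx2: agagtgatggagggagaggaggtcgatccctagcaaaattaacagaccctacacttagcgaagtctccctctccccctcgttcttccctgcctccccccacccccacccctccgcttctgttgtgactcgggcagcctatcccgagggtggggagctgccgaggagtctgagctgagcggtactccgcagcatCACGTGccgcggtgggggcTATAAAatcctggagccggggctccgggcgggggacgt
RefSeq windows were found for 7 of the 9 genes, Dlx5 and Dlx6 being those without one. CACGTG on either strand was present in 2 of these 7 windows and in 6.02% of all 32851 windows of the same length. TATAAA was present in 2 of 7, those of Gad1 and Gsx2, and in 12.4% of all windows. The homeodomain core TAATTA and the E-box CAGCTG were in none of the 7 windows and in 4.84% and 13% of all windows. Letters in a window are a description and not evidence of binding.

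Dlx5 (ENSMUSG00000029755, chr6:6877805-6882085, minus strand) and Dlx6 (ENSMUSG00000029754, chr6:6863334-6868568, plus strand) form the other gene pair and had lower levels, also per exon length. Dlx5 had 3.72, 3.21, 1.20, 6.73 and 5.37 CPM in the controls, whereas Dot1l-cKO samples had 2.77, 0.468, 1.12, 1.96 and 0.548 CPM. The samples of replicate 3 differed little between genotypes. Its log2 fold change was -1.56 with an SE of 0.54 and an edgeR adjusted p of 0.118. Without control replicate 3 the log2 fold change of Dlx5 was -1.80 and the call was passed, with an edgeR adjusted p of 0.0477.

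Dlx6 had 4.04, 4.46, 0.659, 6.68 and 3.71 CPM in the controls, and Dot1l-cKO samples had 1.75, 0.451, 1.82, 1.6 and 0.0967 CPM. Control replicate 3 was below 3 of the 5 Dot1l-cKO samples. The log2 fold change of Dlx6 was -1.77 with an SE of 0.68 and an edgeR adjusted p of 0.165. Dlx6os1, an RNA transcribed against Dlx6 and past it, had 70.8 ± 35.5 CPM for controls against 24.5 ± 18.6 CPM for Dot1l-cKO (n = 5 each, SD), with a log2 fold change of -1.53 and an edgeR adjusted p of 0.278. The remaining genes of the family, Dlx3 and Dlx4, had at most 10 and 3 counts in any sample and did not pass the filter.

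The gene pairs were then compared within each sample, as log2 ratios of counts with a prior count of 2, by exact two-sided permutation tests adjusted over 4 ratios. Dlx1 to Dlx2 was 1.76 ± 0.24 in controls and 1.5 ± 0.56 in Dot1l-cKO (SD, n = 5 each), with an exact p of 0.365 and an adjusted p of 0.730. Dlx5 to Dlx6 was 0.16 ± 0.52 and 0.50 ± 1.06, with an exact p of 0.587 and an adjusted p of 0.783. Both differences were smaller than the SD of the Dot1l-cKO samples, and that of Dlx1 to Dlx2, at -0.26, was just above the SD of the controls. The sum of Dlx1 and Dlx2 to the sum of Dlx5 and Dlx6 was 3.38 ± 0.11 in controls and 2.67 ± 0.91 in Dot1l-cKO, a difference of -0.71 with an exact p of 0.0397 and an adjusted p of 0.159. Dot1l-cKO replicate 5 had a ratio of 1.08 where the other 4 Dot1l-cKO samples had 2.86 to 3.42. Without that sample the difference was -0.32 with an adjusted p of 0.286, and without Dot1l-cKO replicate 4 it was -0.90 and passed, with an adjusted p of 0.0317 by the exact test.

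Gad1 (ENSMUSG00000070880, chr2:70553072-70602014, plus strand) codes for the GAD enzyme found throughout GABA neurons. Controls had 20.6, 19.7, 6.44, 24.8 and 28.8 CPM, and Dot1l-cKO samples had 11.5, 3.59, 6.72, 9.82 and 0.564 CPM. All controls other than replicate 3 lay above the Dot1l-cKO samples. Its log2 fold change was -1.64 with an SE of 0.61 and an edgeR adjusted p of 0.147. Gad2 (ENSMUSG00000026787, chr2:22622205-22693874, plus strand) codes for the GAD enzyme enriched in nerve terminals. It had 49.1, 21.9, 7.57, 60.8 and 51.8 CPM in the controls, with 21.9, 4.27, 11.2, 18.7 and 0.886 CPM in the Dot1l-cKO samples. For this gene control replicate 2 was also just inside the upper edge of the Dot1l-cKO range. The log2 fold change of Gad2 was -1.75 with an SE of 0.73 and an edgeR adjusted p of 0.20. The log2 ratio of Gad1 to Gad2 was -0.75 ± 0.54 in controls and -0.69 ± 0.28 in Dot1l-cKO (SD, n = 5 each), with an exact p of 0.865 and an adjusted p of 0.865.

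Slc32a1 (ENSMUSG00000037771, chr2:158610767-158615748, plus strand) came closest to a call. Its control values were 7.38, 10.3, 5.48, 11.9 and 8.46 CPM. Its Dot1l-cKO values were 3.04, 1.14, 4.22, 2.40 and 0.226 CPM. Every control lay above every Dot1l-cKO sample, which held for none of the other 8 genes and for 2.17% of all genes tested in that direction. The means were 8.69 ± 2.49 and 2.21 ± 1.57 CPM (SD, n = 5 each). Slc32a1 had a log2 fold change of -1.98 with an SE of 0.54, an unadjusted p of 0.00371 and an edgeR adjusted p of 0.0515. DESeq2 gave an adjusted p of 0.0157. In edgeR the call was passed without control replicate 3 (adjusted p = 0.0464), without Dot1l-cKO replicate 3 (0.0409) or without Dot1l-cKO replicate 5 (0.0203), and was not passed without any of the other 7 samples. Its mean difference in log2 CPM was -1.75 among samples of header number 57 and -2.87 among the others.

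The window upstream of Slc32a1 is shown because it overlaps another transcript that followed the same samples. It is chr2:158610508-158610757 on the plus strand of GRCm38.p6 and ends before the RefSeq start. Capitals mark the 196 bases that lie in exons of Gm14204, a processed transcript of the minus strand. Gm14204 starts 44 bases before the Slc32a1 start of GENCODE at 158610767, which lies beyond the end of the window.
Slc32a1: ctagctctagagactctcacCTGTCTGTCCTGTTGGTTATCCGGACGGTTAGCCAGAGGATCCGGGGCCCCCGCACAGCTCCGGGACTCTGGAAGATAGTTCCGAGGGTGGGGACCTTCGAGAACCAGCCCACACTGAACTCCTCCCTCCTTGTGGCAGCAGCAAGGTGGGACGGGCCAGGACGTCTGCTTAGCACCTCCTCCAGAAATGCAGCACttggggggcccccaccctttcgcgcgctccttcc
Gm14204 (chr2:158595472-158610723) had 19.8 ± 9.31 CPM for controls against 5.58 ± 3.82 CPM for Dot1l-cKO (n = 5 each, SD), with a log2 fold change of -1.82 and an edgeR adjusted p of 0.105. Counting was stranded, so the reads of the antisense pair were assigned apart.

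Levels were compared between genes per kilobase of merged exons. In controls the order was Dlx1 at 11.9 CPM per kb, Dlx2 at 6.92, Gad2 at 6.50, Slc32a1 at 3.11, Gad1 at 2.63, Gsx2 at 2.02, Dlx5 at 1.79, Dlx6 at 1.65 and Nkx2-1 at 0.313 CPM per kb. Of neighbours in this order, Dlx6 and Nkx2-1 were the only ones whose gap exceeded the larger of their SDs. In Dot1l-cKO, Dlx1, Dlx2 and Gad2 were again the 3 highest, at 2.83, 2.11 and 1.94 CPM per kb, and Nkx2-1 was the lowest at 0.0307 CPM per kb.

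The spread among samples of a genotype was wide for these genes. The SD of log2 CPM of the 8 tested genes in controls ranged from 0.43 for Slc32a1 to 1.27 for Dlx6, with a median of 1.12, where the median over all genes tested was 0.21. In Dot1l-cKO it ranged from 1.08 for Dlx5 to 2.33 for Gsx2, with a median of 1.81, where that of all genes was 0.21. An SD at or above the median of these genes was found for 1.96% of all genes in controls and 0.434% in Dot1l-cKO. The summed level of all 9 genes was 180, 138, 41.5, 258 and 197 CPM for the controls and 80.6, 17.7, 47.9, 74.5 and 3.77 CPM for the Dot1l-cKO samples. Control replicate 3 was thus below 3 Dot1l-cKO samples, and Dot1l-cKO replicates 2 and 5 were the lowest of all.

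**Figure D2:**
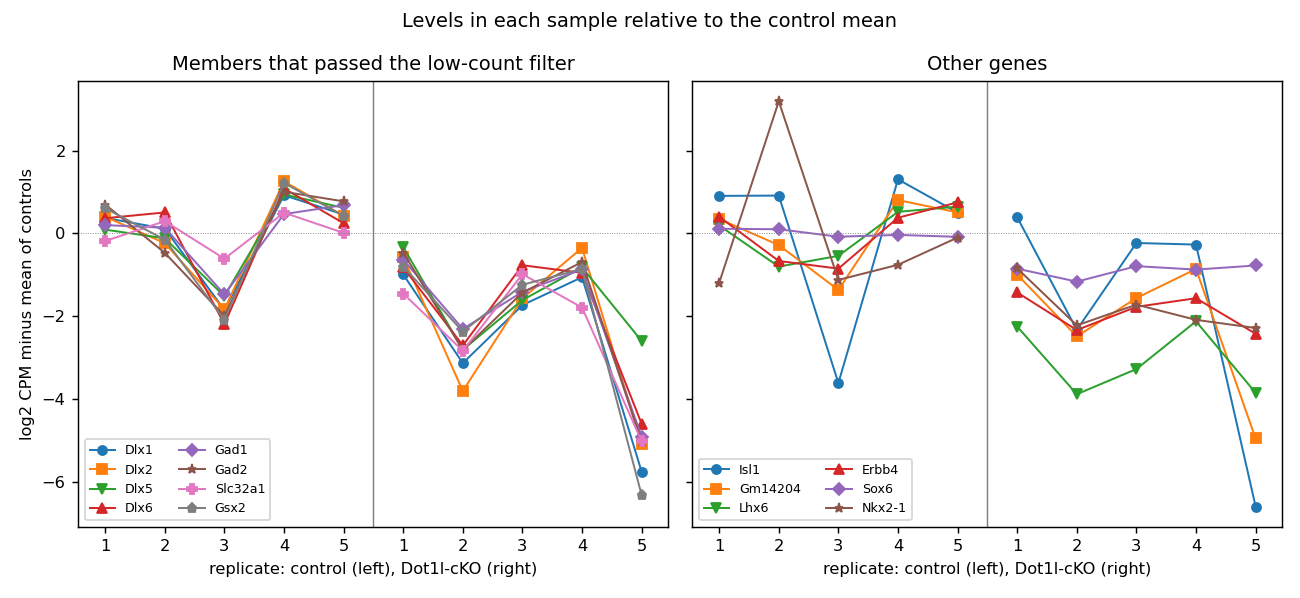
Log2 CPM of each gene minus its mean over the controls is plotted for each replicate, with controls left and Dot1l-cKO right of the vertical line, and lines join the values of 1 gene only to guide the eye. On the left the 8 tested genes dip together in replicate 3 of the controls and replicates 2 and 5 of Dot1l-cKO. On the right Isl1 and Gm14204 share these dips, Sox6 shows a narrow spread within each genotype, and Nkx2-1 peaks in control replicate 2.

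After the mean of each genotype was subtracted, log2 CPM of the 8 tested genes varied together over the 10 samples. Pearson's r of their 28 gene pairs ranged from 0.64 to 0.99 with a median of 0.93. Without control replicate 3 and Dot1l-cKO replicate 5, the samples farthest from the median, r ranged from 0.54 to 0.99 with a median of 0.91 over 8 samples. Nkx2-1 had r of 0.11 to 0.33 with the 8 genes. The genes share the same libraries, so these values describe the libraries and carry no test.

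The 5 other genes most like the mean of the 8, among 12653 genes ranked by the same measure over 10 samples, were Sox1ot (r = 0.99), Gm14204 (0.99), Dlx6os1 (0.98), Slc18a2 (0.98) and Isl1 (0.98). Slc18a2 is the vesicular monoamine transporter, and Isl1 codes for a LIM homeodomain factor of striatal projection neurons. Sox1ot, a transcript overlapping Sox1, had 28.1 ± 12.6 CPM for controls against 9.23 ± 5.63 CPM for Dot1l-cKO (n = 5 each, SD), with a log2 fold change of -1.61 and an edgeR adjusted p of 0.0862. Isl1 had 14.8, 14.9, 0.614, 19.6 and 11.2 CPM for the controls and 10.4, 1.54, 6.72, 6.55 and 0.0483 CPM for the Dot1l-cKO samples, so its low samples were those of the Dlx genes.

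**Figure D3:**
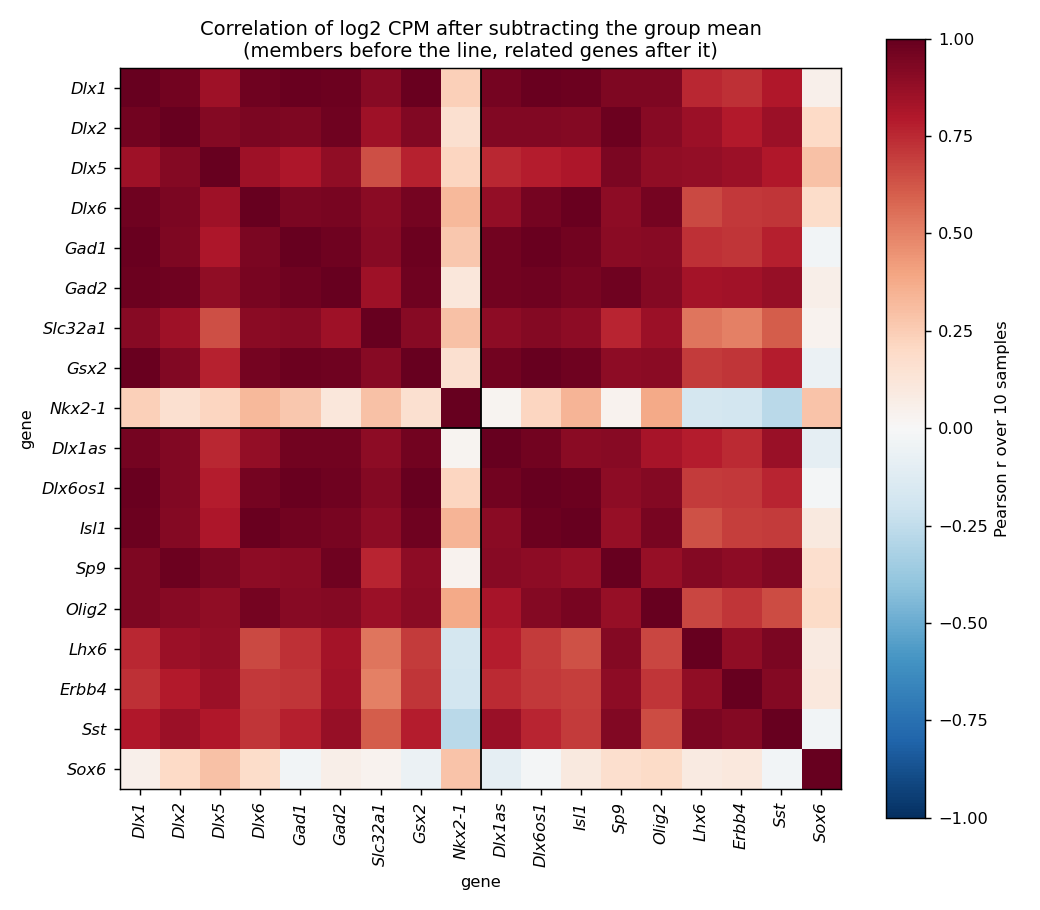
The colour of each cell is Pearson's r between 2 genes over 10 samples, from log2 CPM after the mean of the genotype was subtracted, and black lines part the 9 genes from related ones. The 8 tested genes form a block of high r with Dlx1as, Dlx6os1, Isl1, Sp9 and Olig2, while Nkx2-1 and Sox6 stand outside it.

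Genes of striatal neurons, which are also born in the ventral telencephalon, were read beside these results. Of 13 striatal markers, 11 had a negative log2 fold change and none passed the edgeR threshold, with 2 at an unadjusted p under 0.05 and a median of -0.49, and none was without counts. Their summed level ranged from 54.7 to 157 CPM in controls and from 54.3 to 96.8 CPM in Dot1l-cKO, so the groups overlapped. The lowest control was replicate 3, the library that was also lowest for 8 of the 9 genes among controls, and the lowest Dot1l-cKO samples were replicates 2 and 5. With the mean log2 CPM of these markers as a covariate in edgeR, Slc32a1 had a log2 fold change of -1.81 with an adjusted p of 0.0395 and Dlx5 of -1.02 with an adjusted p of 0.0417, while the other 6 tested genes had none under 0.05. The log2 fold changes of all 8 were nearer 0 than without it, where Slc32a1 had -1.98 and Dlx5 -1.56. Those of the other 6 were -1.61 for Dlx1, -1.17 for Dlx2, -1.30 for Dlx6, -1.25 for Gad1, -1.05 for Gad2 and -1.18 for Gsx2. That fit called 2.1% of all genes lower. The markers were themselves mostly lower in Dot1l-cKO and include Isl1, which had r of 0.98 with the mean of the 8 genes. A covariate of this kind can by itself draw the log2 fold changes towards 0. How much ventral tissue each sample held, and its part in the spread, was not tested. The 5 markers of choroid plexus, 4 of them with a negative log2 fold change and none called by edgeR or at an unadjusted p under 0.05, summed to 539 and 634 CPM in control replicates 1 and 3 and 153 CPM in Dot1l-cKO replicate 5, and to at most 50.5 CPM in the other 7 samples. Their part in the results was not tested.

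Other genes listed for ventral progenitors pointed, where tested, the same way as Gsx2 without passing the test. Of the 12 listed, 9 passed the low-count filter. All 9 had a negative log2 fold change, from -1.65 to -0.20 with a median of -0.81. None was called by edgeR, with 3 of them at an unadjusted p under 0.05. Among those left out by the filter, Gbx2 and Shh had a lower mean in Dot1l-cKO and Nkx6-2 a higher one, at 0.134 against 0.0897 CPM. The lower mean of Gbx2 rested on control replicate 1, with 101 counts where no other sample exceeded 5. That of Shh rested largely on control replicate 2, with 85 counts where no other sample exceeded 23. Control and Dot1l-cKO medians were 0.0449 and 0.0347 CPM for Gbx2 and 0.120 and 0.0967 CPM for Shh. Dorsal progenitor genes also had a negative median, of -0.29, with 4 of 7 below 0. Olig2, a bHLH factor of ventral progenitors, had 6.14 ± 2.48 CPM for controls against 2.49 ± 1.59 CPM for Dot1l-cKO (n = 5 each, SD), with an edgeR adjusted p of 0.129. The genes of GABA uptake, breakdown and chloride transport had a median log2 fold change of -0.14 and none of 7 was called by edgeR. Of these 7, 1 had an unadjusted p under 0.05.

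Of 10 transcription factors of GABAergic neurons, edgeR called 1 lower and none higher. Sp9, a zinc finger factor of ganglionic eminence neurons, had a log2 fold change of -2.09 with an SE of 0.74, with an edgeR adjusted p of 0.129, and r of 0.94 with the mean of the 8 genes. The list had a median log2 fold change of -0.23.

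Genes of cortical interneurons from the medial ganglionic eminence contrasted with the Dlx and Gad genes in their calls. Of 11 listed, edgeR called 7 lower and none higher, and the median log2 fold change was -1.99. Lhx6, the factor that acts below NKX2-1 in these neurons, had 32.1, 16.1, 19.3, 40.4 and 44.0 CPM for the controls and 5.89, 1.87, 2.87, 6.42 and 1.92 CPM for the Dot1l-cKO samples. Its log2 fold change was -3.00 with an SE of 0.43 and an edgeR adjusted p of 0.00187. The neuropeptide genes Sst and Npy had log2 fold changes of -2.65 and -2.39, with edgeR adjusted p of 0.0275 and 0.0274. The difference between the change of these genes and that of the Dlx and Gad genes was not tested. Of 7 markers of interneurons from the caudal ganglionic eminence, 6 were tested and Vip had no count in any sample. In this list Npas1 fell, with a log2 fold change of -3.57 and an edgeR adjusted p of 0.00348, and Calb2 rose, with 1.40 and 0.0214.

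**Figure D4:**
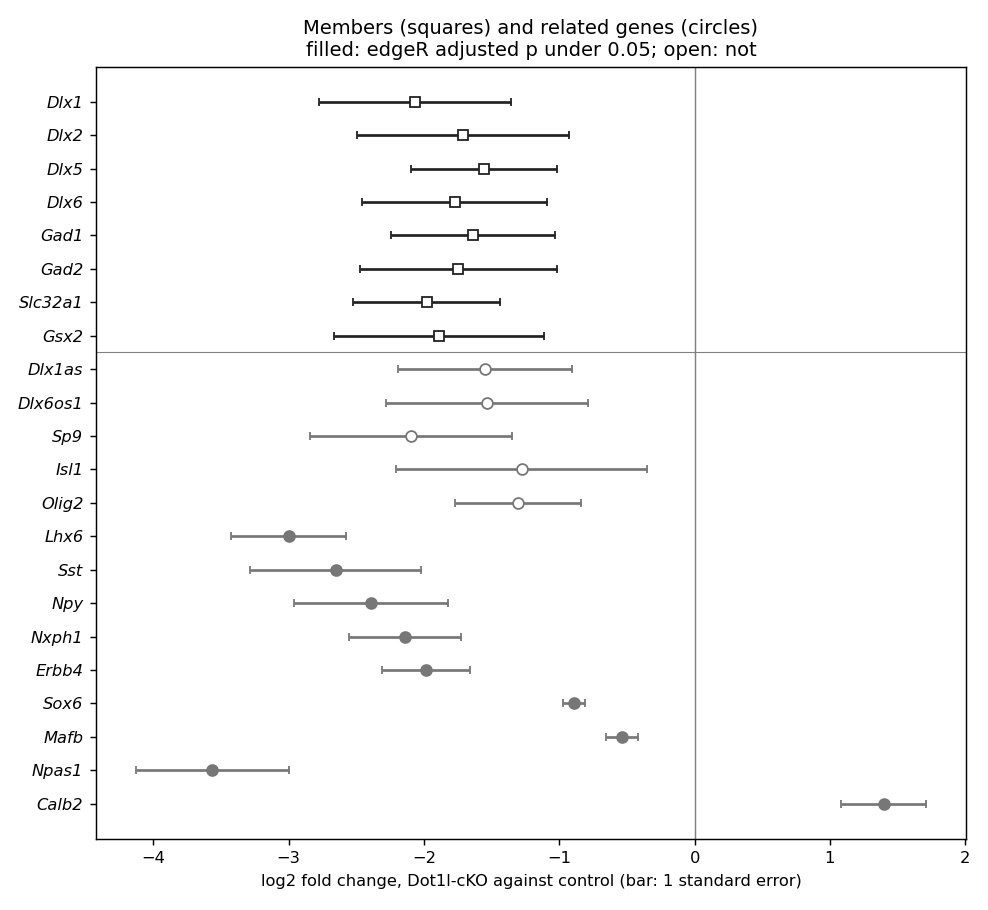
Log2 fold changes of Dot1l-cKO against control are drawn for the 8 tested genes (squares) and for related genes (circles), with bars of 1 standard error and filled symbols for an edgeR adjusted p under 0.05. The squares lie between -2.07 and -1.56 and are open, and Lhx6 and Npas1 lie further left and are filled.

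The remaining lists were read as a check of tissue. Dorsal progenitor genes were present in every sample, with summed levels of 823 to 1268 CPM in controls and 767 to 929 CPM in Dot1l-cKO. In this list of 7, edgeR called Lhx2 (log2 fold change -1.21, adjusted p = 0.000119) and Pax6 (-0.36, adjusted p = 0.0294) lower and none higher. Of 7 glutamatergic neuron genes all had a positive log2 fold change, with a median of 0.26, and edgeR called none, with 3 at an unadjusted p under 0.05. Of 4 tested genes of the thalamus, 2 had log2 fold changes below 0 and 2 above 0. Lhx9 rose, with 0.77 and an edgeR adjusted p of 0.0111, and Tcf7l2 had -1.15 with an edgeR adjusted p of 0.112. All 5 microglial genes rose in the edgeR test, and their sum ranged from 28.7 to 51.2 CPM in controls and from 56.6 to 91.2 CPM in Dot1l-cKO. None of 6 blood and 5 endothelial genes was called by edgeR or had an unadjusted p under 0.05. Blood genes summed to 1935 CPM in control replicate 3 and 1721 CPM in Dot1l-cKO replicate 5, both low in the Dlx and Gad genes, and to 438 to 1061 CPM in the other 8 samples. Endothelial genes summed to 206 and 237 CPM in that pair of samples and to 102 to 174 CPM in the other 8. Dot1l-cKO replicate 2 was also low in the Dlx and Gad genes. It had 1061 CPM of blood genes and the lowest endothelial sum, 102 CPM. The part of these markers in the spread was not tested.

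**Figure D5:**
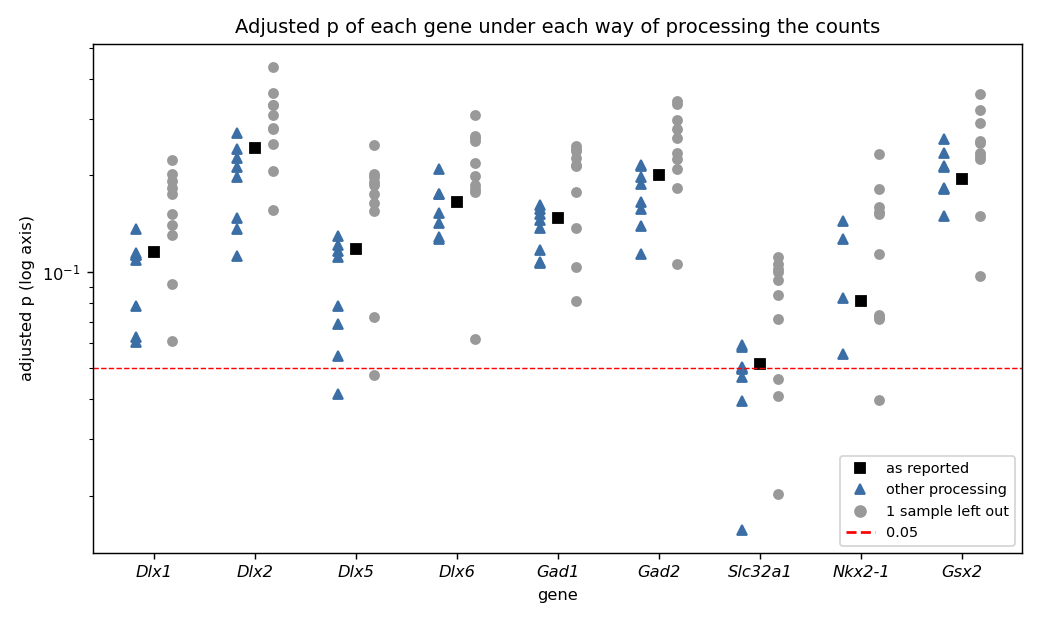
The adjusted p of each gene is plotted on a log axis as reported (square), under other processing of the counts (triangles) and with 1 sample left out (circles), and the dashed line is 0.05. For Nkx2-1 all values are without the low-count filter. Slc32a1 lies on both sides of the line, Dlx5 crosses it in 2 fits and Nkx2-1 in 1, and the other 6 genes stay above it in all.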

How the data were processed

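Total RNA of 10 dorsal telencephalon samples was analysed, and the sample titles gave the groups and replicate numbers. According to the labels and the study's methods, the authors made stranded libraries depleted of ribosomal RNA, sequenced them as paired ends, trimmed reads with Trim Galore 0.2.8, mapped them to mm10 with TopHat2 2.0.9 and counted them per Ensembl gene with HTSeq 0.6.0 by strand. The deposited counts are whole numbers and are not normalised. The deposited normalised signal is these counts divided by DESeq2 1.6.1 size factors of the authors, and was used for the limma alternative only. Its column names open with an unexplained number, the header number. Of 43629 identifiers, 42462 had a symbol in GENCODE M21, and those without one held 0.268% of counts. Coordinates are from that annotation on GRCm38. Total counts were 54202349 to 66556034 per sample, and counting intervals cover counting error only, since no molecular identifiers were used. Replicates differed by more than counting noise (chi-square per degree of freedom at least 33.4), so each was counted as 1 sample.

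Genes were kept with filterByExpr, scaled with TMM and tested with the quasi-likelihood test of edgeR 4.0.16 in R 4.3.3 on genotype alone, with Benjamini-Hochberg adjustment over 17039 genes and a threshold of 0.05. The SE is the log2 fold change divided by the square root of F and is approximate. Log2 CPM used a prior count of 2. The tests were tried on simulated counts with known changes. Ratios of gene pairs were tested by exact permutation, whose smallest p for 5 against 5 is 0.00794. Whether the replicate numbers pair the samples is not known, though the study compared littermates. Deviations of same-numbered samples from their group means correlated at 0.17 to 0.66 over 12755 genes, in every pair above 0.1. Values of differently numbered samples were not set beside these, and same-numbered samples also shared a header number, so the correlations cannot decide it. Alternatives were DESeq2 1.42.0, its size factors, 2 other filters, the replicate number or the header number as a block, limma 3.58.1, a striatal marker covariate and each sample left out.

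The 9 genes and all lists were chosen with earlier results of these data known. The lists hold the Dlx family, ventral progenitors, GABAergic factors, GABA handling, interneurons of the medial and caudal eminences, striatum, dorsal progenitors, glutamatergic neurons, thalamus, choroid plexus, blood, endothelium and microglia. Beyond the 9 genes and Dot1l, the rule for naming takes up to 3 called genes per direction and list with the largest change and the 5 genes most like the mean of the tested 8 (mean log2 CPM at least 1). The other genes named were chosen from the lists after their values were seen. Some genes of the rule and the lists are not reported here.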

Additional observations from a re-analysis of the deposited data

Results flagged for a closer look

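Of 54 sets of 5 values examined, 6 held a sample whose gap to its nearest neighbour took more than 0.71 of the range, Dixon's critical value for 5 samples, and chance alone gives about 1 in 20. Control replicate 3 stood apart at the low end for Dlx6 (gap 0.743 of the range) and for Gad1 (0.747). Control replicate 2 stood apart at the high end for Nkx2-1 (0.750). Dot1l-cKO replicate 5 stood apart at the low end for Gsx2 (0.715), in which it held no count, and for the log2 ratio of Dlx1 plus Dlx2 to Dlx5 plus Dlx6 (0.761). Dot1l itself was low in Dot1l-cKO replicate 2 (0.717), at 20.1 CPM.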

How the results depend on the processing

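All 8 tested genes and Nkx2-1 kept a negative log2 fold change under every alternative that gave a value, and no gene of the 9 was called higher in any. The number called lower was 0 in edgeR, 1 with DESeq2, 1 with DESeq2 size factors in edgeR, 1 with no filter on low counts and 2 with the striatal marker covariate. For Slc32a1 the log2 fold change was -2.01 with DESeq2, -2.01 with its size factors (adjusted p = 0.04995 in edgeR), -2.0 with no filter (0.0470 in edgeR) and -1.81 with the covariate, each past the threshold. For Dlx5 it was -1.02 with the covariate, under which Gad2 (-1.05) and Gsx2 (-1.18) also moved by over 1.5 times. With 1 sample left out the number called lower was 0 to 2. The log2 fold changes then ranged from -2.38 to -1.77 for Dlx1, -2.17 to -1.33 for Dlx2, -1.98 to -1.30 for Dlx5, -2.05 to -1.49 for Dlx6, -1.95 to -1.35 for Gad1, -2.12 to -1.46 for Gad2, -2.36 to -1.70 for Slc32a1, -2.16 to -1.54 for Gsx2 and, with no filter, -3.81 to -1.28 for Nkx2-1 (-3.64, past the threshold, without control replicate 3). Dot1l was -0.0058 with limma and -0.046 to 0.25 with 1 sample left out.

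All genes called numbered 1212 in edgeR and 2011 with DESeq2, and those called lower 246 and 663. With the replicate block, 495 genes were called lower and with the header-number block 597. The block changed no call among the 9 genes (edgeR adjusted p of Slc32a1 0.0581). With 1 sample left out, 750 to 1357 genes were called, 624 to 1076 higher and 126 to 343 lower. The difference in log2 ratio then ranged from -0.49 to -0.14 for Dlx1 to Dlx2, -0.081 to 0.63 for Dlx5 to Dlx6 (-0.081 without Dot1l-cKO replicate 5), -0.072 to 0.21 for Gad1 to Gad2 and -0.90 to -0.32 for the sums. Sign flips of 5 pairs cannot give a p below 0.0625. The cause of these shifts was not tested. A filter of 10 counts in every sample left out Dlx6, Gsx2 and Nkx2-1. Nkx2-1 was fitted with its other alternatives only without the filter, a choice made after seeing the data. The precision of Nkx2-1 is limited by its 3 to 21 counts in 9 of 10 samples.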
